A study of Mus musculus with 2 samples.

Results

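A set of 7 panel genes of mural and smooth muscle cells was followed through 2 Xenium sections of mouse back skin. It holds Rgs5, Higd1b and Ndufa4l2, which mark pericytes in many tissues, and Myh11, Tagln, Cnn1 and Itga8, which mark smooth muscle. They were chosen by name, as 7 of the 379 genes on the panel, and every transcript with a decoding quality score of at least 20 was used. All 7 were measured in both sections, and together they gave 116978 of 8124205 gene transcripts in the section of skin treated with SspA and HDM and 36837 of 2461475 in the mock section.

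Xenium In Situ (version 1 chemistry, with a mouse tissue atlas panel) decodes single RNA molecules where they lie in a thin slice of tissue. The mice were C57BL/6, and their shaved and depilated back skin was given SspA together with HDM on its surface (SspA+HDM), or PBS in the same way (mock). Skin was examined at day 7 in 5-µm slices of formalin-fixed, paraffin-embedded tissue, with 1 sample per treatment, so no difference between treatments could be tested and none has a replicate check. Each section held 2 strips of skin, given side by side below, and the number of animals behind a section is not stated in the sources used here.

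Mural cells wrap the endothelial tube of blood vessels. Pericytes sit on capillaries and small venules inside the vessel's basement membrane, while smooth muscle cells ring arterioles, arteries and larger veins and contract by sliding smooth muscle myosin along actin. Skin holds a further smooth muscle away from vessels, the arrector pili, which runs from the upper dermis to the hair follicle and raises the hair.

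Rgs5 encodes a regulator of G protein signalling that shortens signalling from Gq- and Gi-coupled receptors. Higd1b belongs to the hypoxia-inducible domain family of small mitochondrial proteins, and Ndufa4l2 encodes a mitochondrial protein related to a respiratory chain component and induced by low oxygen. Myh11 encodes the smooth muscle myosin heavy chain, Tagln the actin-binding protein transgelin, and Cnn1 calponin, which binds actin and restrains myosin. Itga8 encodes the alpha chain of a matrix receptor that binds nephronectin and fibronectin.

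Upstream sequence from RefSeq (GRCm38.p6) was held for 3 of the 7 genes, Rgs5, Cnn1 and Itga8, and is shown because Rgs5 and Cnn1 choose the cells set apart below and Itga8 separated them most widely. Each stretch ends at the last base before the annotated gene and is written in the direction of transcription, with E-boxes (CANNTG, which reads the same on both strands) in capitals. The Rgs5 stretch is chr1:169655251-169655500 on the plus strand, that of Cnn1 is chr9:22099003-22099220 on the plus strand, and that of Itga8 is chr2:12301986-12302194 on the minus strand.
Rgs5: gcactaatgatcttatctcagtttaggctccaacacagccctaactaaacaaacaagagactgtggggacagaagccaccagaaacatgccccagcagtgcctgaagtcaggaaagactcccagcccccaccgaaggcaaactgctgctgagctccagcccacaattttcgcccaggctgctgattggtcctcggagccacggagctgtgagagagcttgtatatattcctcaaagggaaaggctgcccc
Cnn1: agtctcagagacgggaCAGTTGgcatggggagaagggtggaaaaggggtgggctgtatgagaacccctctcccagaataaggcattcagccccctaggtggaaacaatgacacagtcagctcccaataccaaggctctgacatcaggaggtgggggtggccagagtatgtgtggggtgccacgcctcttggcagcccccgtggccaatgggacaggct
Itga8: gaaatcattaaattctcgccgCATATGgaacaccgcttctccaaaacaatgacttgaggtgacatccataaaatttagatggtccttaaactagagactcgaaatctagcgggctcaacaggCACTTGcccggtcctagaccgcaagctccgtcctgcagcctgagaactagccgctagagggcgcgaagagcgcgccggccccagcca
The Rgs5 stretch holds 0 E-boxes, the Cnn1 stretch 1 and the Itga8 stretch 2. In windows from 250 bases before to 50 after the start, all 3 genes held an E-box, as did 72.3% of the 32851 windows in the table. The CArG box, the motif of serum response factor, was found in 0 of the 3 windows and in 1.63% of all windows.

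Cell outlines numbered 46142 in SspA+HDM, with 121 transcripts in the median cell, and 15932 in mock, with 103. Of the gene transcripts, 97.6% lay in a cell outline in SspA+HDM and 94.5% in mock. The SspA+HDM strips were 7.44 and 7.47 mm long with a median depth of 357 and 364 µm, and the mock strips were 6.91 mm long each with a median depth of 216 and 223 µm. Outlines were smaller in the SspA+HDM section, with a median of 89.5 µm2 against 134 µm2 in mock.

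Relative to the rest of the panel, the pericyte genes Rgs5 and Higd1b were higher in SspA+HDM skin and the 4 muscle genes were lower. Levels are CPM, a gene's transcripts per 1000000 panel transcripts inside cells, and ratios are SspA+HDM over mock with exact 95% intervals, which like all intervals here cover counting error only. A level of a whole section cannot tell fewer cells of a type from less RNA per cell. Among the pericyte genes, Rgs5 reached 3177 CPM in the SspA+HDM section (3133 and 3213 in its strips), against 2040 CPM in mock (1993 and 2082), a ratio of 1.56 (1.51 to 1.61). Higd1b was sparse, with 582 and 105 transcripts, and stood at 73.4 CPM in SspA+HDM (73.1 and 73.7 in the strips) against 45.2 CPM in mock (36.3 and 53.2), a ratio of 1.63 (1.32 to 2.02). For both genes, each SspA+HDM strip lay above both mock strips. The log2 ratio of Higd1b, 0.70, fell to 0.35 with no quality filter and to 0.12 over the nucleus. Ndufa4l2 differed least, though its strips did not overlap either, at 8310 CPM in SspA+HDM (8373 and 8258) and 7874 CPM in mock (8058 and 7708), a ratio of 1.06 (1.04 to 1.07).

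The muscle genes ran the other way, and Cnn1 was furthest apart. Cnn1 measured 193 CPM in SspA+HDM skin (184 and 201 in the strips), against 585 CPM in mock (626 and 548), which is 3.03-fold lower in SspA+HDM (2.82 to 3.27). Myh11 measured 1393 CPM in SspA+HDM (1339 and 1437), against 2541 CPM in mock (2562 and 2522), 1.82-fold lower (1.77 to 1.88). For all 4 muscle genes, each SspA+HDM strip lay below both mock strips. Tagln measured 1125 CPM in SspA+HDM (1082 and 1159) and 1791 CPM in mock (1804 and 1780), 1.59-fold lower (1.54 to 1.65). Itga8 measured 307 CPM in SspA+HDM (316 and 300.0) and 457 CPM in mock (454 and 458), 1.49-fold lower (1.38 to 1.60).

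Of the 7 genes, 1 was at least 2-fold lower in SspA+HDM, where 12.7% of the panel was (346 genes that reached 100 transcripts in either section), and 0 were at least 2-fold higher, where 14.7% of the panel was. The median log2 ratio of the 7 was −0.57, against 0.05 over the panel. The 3 other panel genes from a list of smooth muscle genes were lower as well. Myl9, a regulatory light chain of smooth muscle myosin, stood at 1530 CPM in SspA+HDM and 2364 CPM in mock, and Mylk, the kinase that activates it, at 2417 and 2940 CPM. Pln, phospholamban, which restrains calcium uptake into the sarcoplasmic reticulum, stood at 43.5 CPM in SspA+HDM and 98.5 CPM in mock, 2.26-fold lower (1.91 to 2.68).

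These directions are relative to a panel total that differed in make-up between the sections. Per mm of strip, all 7 genes had more transcripts in SspA+HDM than in mock: 4.92 times as many for Rgs5, 5.13 for Higd1b, 3.33 for Ndufa4l2, 2.12 for Itga8, 1.98 for Tagln and 1.73 for Myh11. For Cnn1 the count per mm was nearly the same, 103 in SspA+HDM and 98.5 in mock. Keratinocyte-like cells (defined below) were then left out of both the gene and the total. The log2 ratios of Itga8, Tagln and Myh11 moved to −0.05, −0.15 and −0.31, and that of Cnn1 to −1.05. Those of Rgs5 and Higd1b moved to 1.09 and 1.26, and that of Ndufa4l2 changed sign, from 0.08 to −0.13. Under each of these 3 scalings the ratios of Higd1b and Rgs5 were the highest of the 7 and that of Cnn1 the lowest, while the size and sign of the muscle genes' differences went with the denominator.

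**Figure D1:**
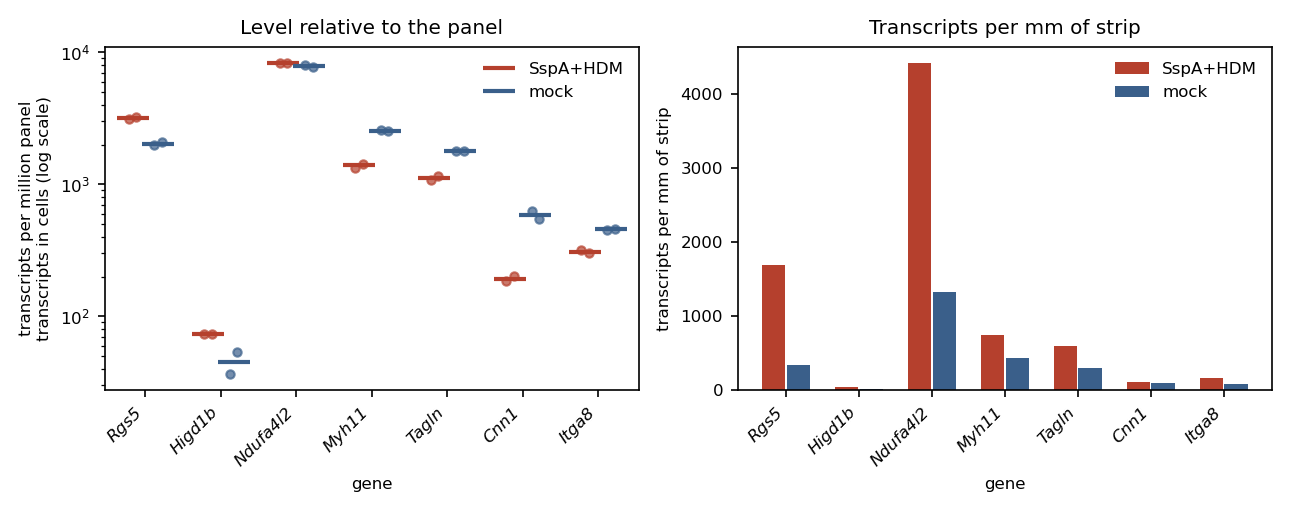
Left, level of each gene in CPM over the panel (log scale), with a bar for the section and a point for each of its 2 strips, SspA+HDM left of mock. Right, transcripts per mm of strip. Rgs5 and Higd1b are higher and Myh11, Tagln, Cnn1 and Itga8 lower in SspA+HDM on the left, while on the right no gene is lower in SspA+HDM and Cnn1 stands at 103 and 98.5 per mm. Genes differ in probe efficiency, so heights of different genes are not compared.

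To compare cells of unequal depth, every cell with at least 50 transcripts was thinned at random to 50, which left 38478 cells in SspA+HDM and 12842 in mock and set aside 7664 and 3090 shallower cells. Rgs5 was then found in 11.1% of SspA+HDM cells and 6.67% of mock cells (17.9% and 11.9% without thinning). Cnn1 was found in 1.08% of SspA+HDM cells and 2.76% of mock cells (1.90% and 4.22% without thinning). Both were rarer in keratinocyte-like cells, which should lack them: Rgs5 in 1.41% of those cells in SspA+HDM and 0.5003% in mock, and Cnn1 in 0.0872% in SspA+HDM and 0.682% in mock. Keratinocyte-like cells had medians of 204 transcripts in SspA+HDM and 142 in mock before thinning.

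The other muscle genes differed less between the sections per cell. Myh11 was found in 5.89% of SspA+HDM cells and 8.20% of mock cells, Tagln in 6.16% and 6.78%, and Itga8 in 2.18% and 2.52%. Without thinning, Tagln stood at 10.1% of cells in both sections and Itga8 at 3.96% in SspA+HDM and 3.99% in mock. Higd1b was found in 0.556% of SspA+HDM cells and 0.304% of mock cells, against 0.106% and 0.0910% of keratinocyte-like cells. Ndufa4l2 was unlike the rest: it was found in 26.2% of SspA+HDM and 25.5% of mock cells, and in more of the keratinocyte-like cells, 39.6% and 42.2%. Ndufa4l2 was thus not restricted to mural cells in these sections.

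Cells that held a gene mostly held few copies. Without thinning, cells with Rgs5 had a mean of 3.04 transcripts of it in SspA+HDM and 2.50 in mock, with at most 51 and 27 in a cell. Cells with Myh11 had 2.57 in SspA+HDM and 3.09 in mock, and cells with Cnn1 had 1.75 and 2.03. Higd1b was seen 1.14 times in a cell that had it, in both sections, so its absence from a cell says little.

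Cells were clustered over both sections on all panel genes, and clusters were named, as "X-like", by lists of cell type markers. At least 3 markers of a list had to stand at least 2-fold above the median cluster. The list also had to lead the cluster's genes of highest fold. No cluster met that rule for pericytes, for which the panel held 3 of 17 listed genes. The rule needed all 3 of them, Ndufa4l2 included, so it could not show that a pericyte cluster was absent. The cluster with the highest Rgs5 and Higd1b was blood-endothelium-like, led by Vwf, Plvap and Tie1 with Rgs5 and Myh11 among its 10 leading genes, so endothelial and mural transcripts shared outlines there. It held 2883 cells in SspA+HDM and 642 in mock. The smooth-muscle-like cluster, led by Myh11, Cnn1 and Tagln, held 612 and 494 cells. Since the 7 genes helped to form these clusters, their levels by class are a description.

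Each gene had its highest level in the same class in both sections. Rgs5 stood at 46680 CPM in blood-endothelium-like cells of SspA+HDM and 26460 CPM in those of mock, and Higd1b at 1190 and 697 CPM. Those cells held 55.6% of the Rgs5 transcripts in SspA+HDM but 32.8% in mock, where 43.7% lay in skeletal-muscle-like cells against 17.1% in SspA+HDM. The level of Rgs5 in skeletal-muscle-like cells was 3344 CPM in SspA+HDM and 2866 CPM in mock. A cluster of this class, led by Ttn and Actn3 with Vwf among its leading genes, reached 24440 CPM of Rgs5 in 156 SspA+HDM cells and 17090 CPM in 141 mock cells.

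Myh11, Tagln, Cnn1 and Itga8 peaked in smooth-muscle-like cells. In those cells Myh11 stood at 69540 CPM in SspA+HDM and 67420 in mock, Tagln at 41460 and 47350, Cnn1 at 17830 and 21520, and Itga8 at 11670 and 12970. Cnn1 was the most restricted of the 4, with 58.6% of its transcripts there in SspA+HDM and 65.5% in mock. Myh11 was shared with blood-endothelium-like cells, which held 35.2% of it in SspA+HDM and 14.6% in mock at 12960 and 14630 CPM. Ndufa4l2 peaked in keratinocyte-like cells, at 12540 CPM in SspA+HDM and 15650 CPM in mock, which held 79.1% and 66.0% of it. Different clusters made up that class in the sections, and 1 of them held 3207 of the 4748 mock cells but 40 of the 16659 in SspA+HDM. The same class was highest for each gene at both other clustering resolutions tried and when the 7 genes were left out of the clustering. Clusters were still named in that case by lists that hold Myh11, Tagln, Cnn1 and Itga8 for smooth muscle. For these 4 genes it is therefore no independent check.

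Itga8 and Tagln had a further location. An unnamed cluster led by Wif1, Acan and Chodl held 18.3% of Itga8 and 9.51% of Tagln in SspA+HDM, in 1493 cells, against 1.41% and 0.696% in 39 mock cells. Itga8 stood there at 3762 CPM in SspA+HDM and 3733 CPM in mock, and Tagln at 7153 and 7218 CPM. The contractile genes were low in the same cells, with Myh11 at 936 CPM and Cnn1 at 118 CPM in SspA+HDM and no transcript of either in the mock cells, where the exact interval for 0 reaches 918 CPM. Without this cluster the section log2 ratios of Itga8 and Tagln were −0.82 and −0.79.

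**Figure D2:**
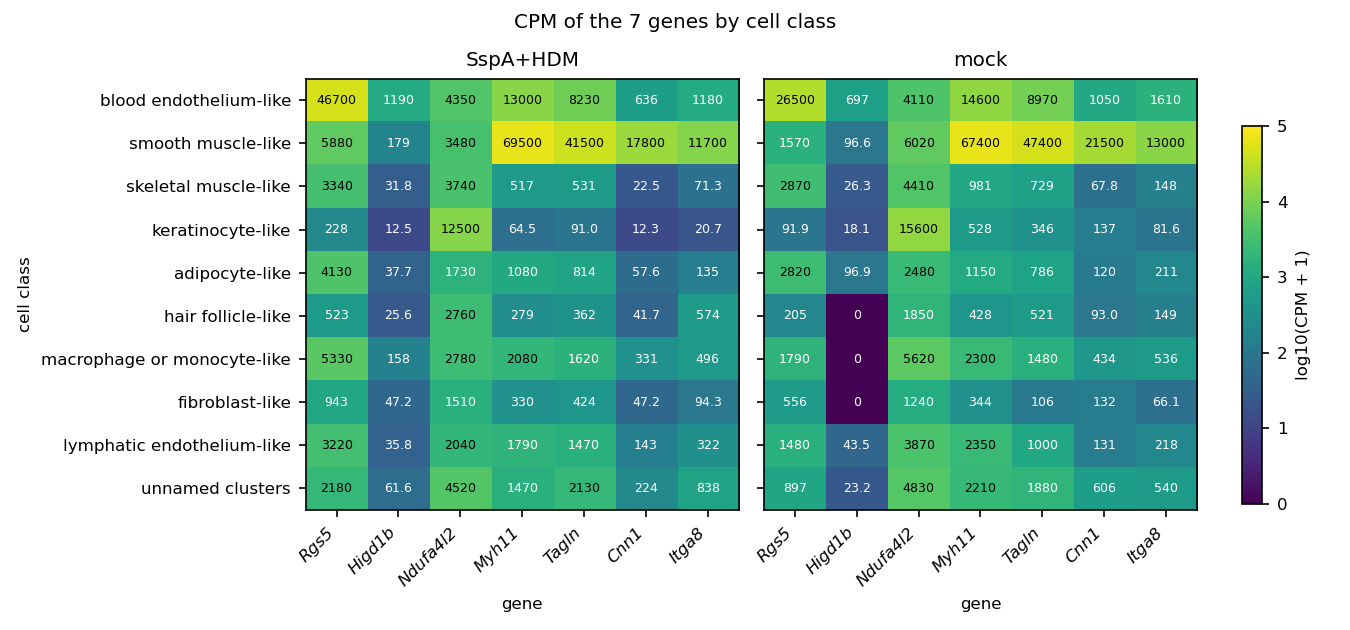
CPM of the 7 genes by cell class, with SspA+HDM left and mock right, coloured by log10(CPM + 1) and with each value printed to 3 digits. Rgs5 and Higd1b are highest in blood-endothelium-like cells, Myh11, Tagln, Cnn1 and Itga8 in smooth-muscle-like cells and Ndufa4l2 in keratinocyte-like cells, in both sections.

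Clustering without the 7 genes gave classes whose size and levels could be compared between sections. The genes were left out of the grouping of cells but not of the naming of clusters. The smooth-muscle-like class was still named by a list that holds Myh11, Tagln, Cnn1 and Itga8. Smooth-muscle-like cells were then 432 (0.936% of cells) in SspA+HDM and 376 (2.36%) in mock, a share 2.52-fold lower in SspA+HDM (2.19 to 2.90), and per mm of strip their number was close, 29.0 and 27.2. Blood-endothelium-like cells were 2301 (4.99%) in SspA+HDM and 404 (2.54%) in mock, a share 1.97-fold higher (1.77 to 2.19), and 154 and 29.2 per mm. These shares have the same direction as the section CPM of the muscle genes and of Rgs5. Shares and CPM are both relative to section totals, and per mm the smooth-muscle-like cells were not fewer in SspA+HDM. The part of cell numbers in the section levels was not tested.

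Inside these smooth-muscle-like cells, the muscle genes differed little between sections. Myh11 measured 81920 CPM in SspA+HDM and 74920 CPM in mock, a ratio of 1.09 (1.03 to 1.16). Tagln measured 48440 and 52710 CPM, Cnn1 21860 and 25000 CPM, a ratio of 0.875 (0.789 to 0.970), and Itga8 14990 and 15650 CPM. None of the 4 was 2-fold apart, with all genes clustered or without the 7, where 8.05% of the 87 genes compared in smooth-muscle-like cells were at least 2-fold lower with all genes clustered. Rgs5 was, at 11160 CPM in SspA+HDM and 2493 CPM in mock, 4.48-fold higher (3.49 to 5.81), with 367 and 76 transcripts. In the clusters formed with all genes the same difference was 3.75-fold (2.86 to 4.98), where 9.20% of the 87 genes were at least 2-fold higher. With all genes clustered, Rgs5 was also higher in SspA+HDM in classes not known to make it. It stood at 228 and 91.9 CPM in keratinocyte-like cells and 5328 and 1787 CPM in macrophage-or-monocyte-like cells. The 4 muscle genes were lower in keratinocyte-like cells of SspA+HDM, from 3.80-fold for Tagln to 11.2-fold for Cnn1 (12.3 against 137 CPM). In macrophage-or-monocyte-like cells they differed less, with Cnn1 at 331 and 434 CPM and Tagln at 1623 and 1481 CPM. The part of RNA from neighbouring cells in these differences was not tested.

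In the blood-endothelium-like cells formed without the 7 genes, Rgs5 measured 52440 CPM in SspA+HDM and 35410 CPM in mock, 1.48-fold higher (1.39 to 1.58), and none of the 7 genes was 2-fold higher, where 20.1% of 179 genes were with all genes clustered. The muscle genes were lower there in SspA+HDM: Myh11 at 15830 against 27150 CPM in mock, and Cnn1 at 964 against 2149 CPM, 2.23-fold lower (1.66 to 2.96). With all genes clustered, Cnn1 was 1.66-fold lower (1.22 to 2.22) and Myh11 1.13-fold lower (1.05 to 1.22), where 10.1% of those genes were at least 2-fold lower, so the size of this difference varied with how the cells were grouped.

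Per cell, the 4 muscle genes kept together, and Higd1b was found with both Rgs5 and Myh11. For each of the 21 pairs, the number of thinned cells with both genes was divided by the number that the product of their shares gives. The product gave at least 1 cell in both sections for 20 pairs, of which 10 were at least 2-fold above it in both. Of 40223 pairs of other panel genes that met the same minimum, 5.29% were. Cnn1 and Itga8 were the tightest muscle pair, at 13.6 times the product in SspA+HDM and 13.4 times in mock. Myh11 with Cnn1 stood at 12.3 and 9.07, Tagln with Cnn1 at 10.5 and 10.2, Myh11 with Tagln at 6.46 and 7.60, and Tagln with Itga8 at 5.86 and 9.34. Of the cells with Cnn1, 72.4% in SspA+HDM and 74.4% in mock also held Myh11.

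Rgs5 and Higd1b were found together at 6.25 times the product in SspA+HDM and 9.62 times in mock, where 148 of 214 Higd1b cells held Rgs5 in SspA+HDM and 25 of 39 in mock. Higd1b and Myh11 stood at 6.03 and 5.00, with Myh11 in 76 of the 214 cells in SspA+HDM and 16 of the 39 in mock. In cells thinned to 100 the Higd1b pair with Myh11 was the higher in SspA+HDM, at 8.66 against 6.29 with Rgs5. Of the muscle genes, Cnn1 overlapped least with Rgs5. Rgs5 and Cnn1 stood at 1.78 times the product in SspA+HDM and 1.56 in mock, and without thinning the mock value was 0.987. Rgs5 and Myh11 overlapped more, at 4.21 and 2.98, and 24.8% of Rgs5 cells in SspA+HDM and 24.4% in mock held Myh11. Ndufa4l2 was below the product with Rgs5 (0.729 and 0.846) and with each of the 4 muscle genes in both sections.

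**Figure D3:**
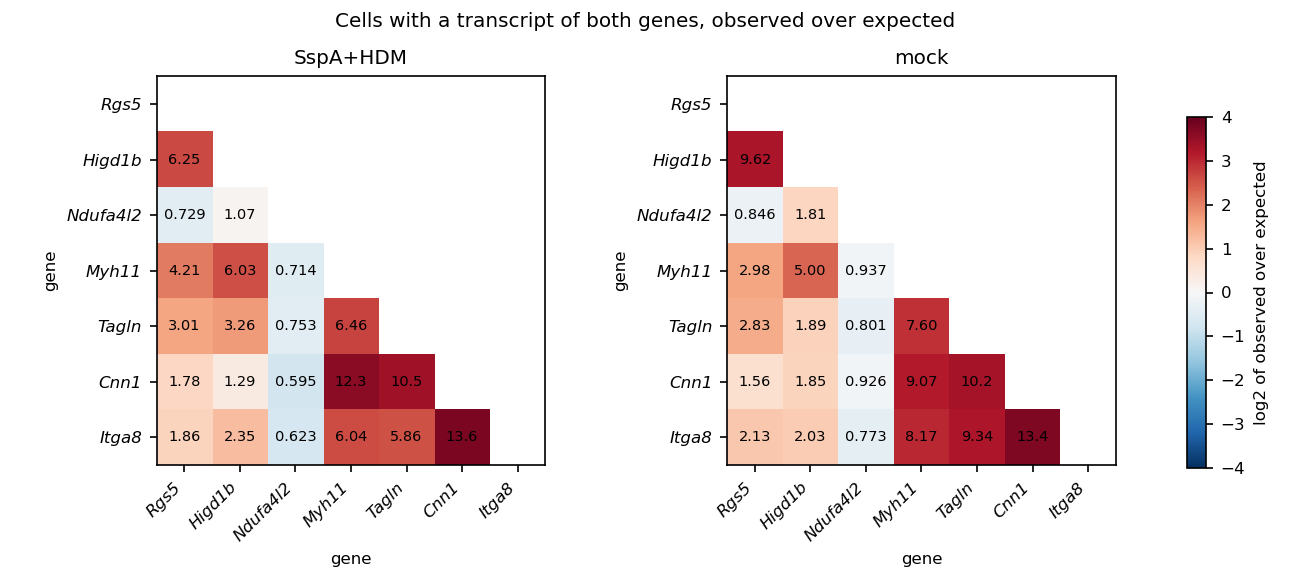
Cells holding at least 1 transcript of both genes of a pair, over the number the product of the 2 shares gives, for cells thinned to 50 transcripts, with SspA+HDM left and mock right and colour on a log2 scale. The muscle genes form a red corner that reaches 13.6 and 13.4 for Cnn1 with Itga8, Rgs5 with Higd1b stands at 6.25 and 9.62, and Ndufa4l2 is pale or blue with every muscle gene and with Rgs5.

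Outlines can take in RNA of a touching cell, so pairs were also counted as transcripts within 5 µm of each other, whatever their outline. Of Higd1b transcripts, 79.0% in SspA+HDM and 69.2% in mock had Rgs5 that close, where 11.2% and 7.72% of all panel transcripts did, so that Higd1b stood at 7.06 and 8.96 times the panel's share. Higd1b also lay that close to Myh11, for 46.4% of its transcripts in SspA+HDM and 37.4% in mock, which is 9.45 and 6.68 times the panel's share. Of Cnn1 transcripts, 23.8% in SspA+HDM and 6.70% in mock had Rgs5 within it, which is 2.13 times the panel's share in SspA+HDM and 0.868 times in mock. Cnn1 had Myh11 within that distance for 83.8% of its transcripts in SspA+HDM and 84.7% in mock. A transcript of 7 genes from a list for blood endothelium (Plvap, Vwf, Kdr, Aqp1, Sox17, Tie1 and Ackr3) lay that close to 79.5% of Rgs5 transcripts in SspA+HDM and 69.7% in mock, and to 67.0% and 46.4% of Cnn1 transcripts, against 24.6% and 23.6% of all transcripts. Cnn1 thus lay close to Rgs5 and to endothelial RNA more often in the SspA+HDM section than in mock, and Rgs5 itself was denser there.

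Over cells with at least 20 transcripts (44282 in SspA+HDM and 15306 in mock), the panel genes most like Rgs5 by Pearson's r of log values were the endothelial genes Vwf (0.47, mean of the sections), Podxl (0.43) and Plvap (0.41). For Myh11 they were Mylk (0.62), Myl9 (0.58) and Gm13889 (0.39), and the same 3 genes led for Tagln, Cnn1 and Itga8. Higd1b correlated weakly with every gene, at 0.22 with Rgs5 and at most 0.15, with Gm13889, outside the set. Ndufa4l2 was most like the epidermal genes Calm4 (0.41), Calm5 (0.35) and Serpinb5 (0.34). Cells of a section share a library and unequal depth, so these values describe the sections.

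Cells with Rgs5 and cells with Cnn1 were then set apart on these genes alone, so that the other 5 could be read in cells not chosen on them. Cells with at least 2 Rgs5 and no Cnn1 numbered 4196 (9.09%) in SspA+HDM and 910 (5.71%) in mock, and cells with at least 2 Cnn1 and no Rgs5 numbered 208 (0.451%) and 267 (1.68%). Cells with at least 2 of both were few, 42 in SspA+HDM and 18 in mock. Per mm of strip there were 281 and 65.9 of the Rgs5 cells and 13.9 and 19.3 of the Cnn1 cells. The Rgs5 cells were blood-endothelium-like in 51.1% of cases in SspA+HDM and 33.5% in mock.

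Of the other 5 genes, 4 were at least 2-fold apart between these cells, the same way in both sections, 1 higher and 3 lower in the Rgs5 cells. Of 219 other panel genes, 20.5% were at least 2-fold higher in the Rgs5 cells of both sections and 10.5% were at least 2-fold lower. Higd1b was on the Rgs5 side, at 566 CPM in Rgs5 cells against 46.8 CPM in Cnn1 cells of SspA+HDM, and 268 against 62.0 CPM in mock. Its ratios of 12.1 (2.16 to 479) and 4.33 (1.14 to 36.6) rested on 1 and 2 transcripts in the Cnn1 cells. Itga8 was the furthest apart, at 527 CPM in Rgs5 cells against 13820 CPM in Cnn1 cells of SspA+HDM, 26.2-fold lower (22.4 to 30.7), and 424 against 12700 CPM in mock, 29.9-fold lower (23.7 to 38.2). Tagln was 13.1-fold lower (12.2 to 14.1) in the Rgs5 cells of SspA+HDM and stood at 2561 against 43530 CPM in mock, and Myh11 was 12.8-fold (12.1 to 13.6) and 13.6-fold lower (12.5 to 14.7). Ndufa4l2 hardly separated them, at 4377 against 2857 CPM in SspA+HDM, 1.53-fold higher (1.19 to 2.01), and 5024 against 4617 CPM in mock, 1.09-fold higher (0.916 to 1.30).

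For Myh11 and Itga8 the intervals of the 2 sections overlapped. Myl9 and Mylk were apart the same way. Myl9 was 11.2-fold lower in the Rgs5 cells of SspA+HDM and 17.1-fold lower in those of mock, and Mylk 8.23-fold and 14.7-fold lower. Pln was 4.2-fold lower in the Rgs5 cells of mock (2.42 to 7.30). In SspA+HDM its ratio was 0.575 (0.238 to 1.81), on 5 transcripts in the Cnn1 cells. Des, desmin, an intermediate filament gene of all muscle and of pericytes, was higher in the Rgs5 cells, by 1.79-fold in SspA+HDM and 1.87-fold in mock. Skeletal-muscle-like cells were 839 of the Rgs5 cells in SspA+HDM and 400 (44.0%) in mock, and their part in the Des level was not tested. Of the Cnn1 cells, 79.8% in SspA+HDM and 76.4% in mock were smooth-muscle-like.

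**Figure D4:**
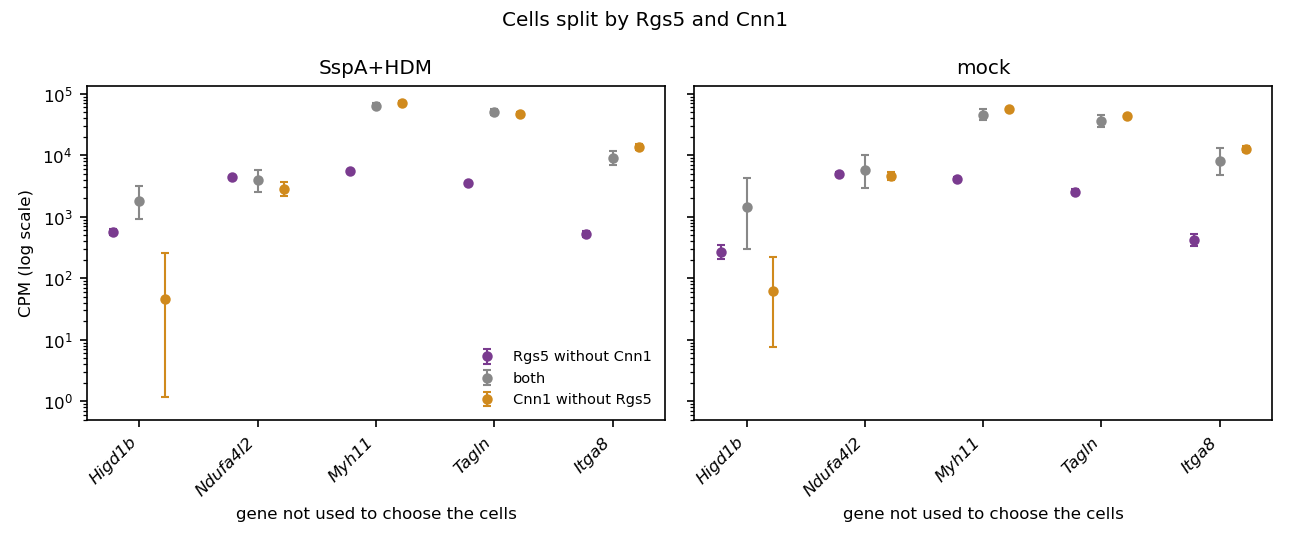
CPM (log scale) with exact 95% intervals of the 5 genes not used to choose the cells, in cells with Rgs5 but no Cnn1 (purple), cells with both (grey) and cells with Cnn1 but no Rgs5 (orange), with SspA+HDM left and mock right. Myh11, Tagln and Itga8 are far higher in Cnn1 cells, Higd1b is lower there with wide intervals, Ndufa4l2 lies close in all 3, and cells with both genes lie near the Cnn1 cells for the muscle genes.

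A broader grouping added Rgs5 and Higd1b into a pericyte sum and Myh11, Tagln and Cnn1 into a muscle sum. Cells with at least 5 such transcripts were called pericyte-gene-led where the pericyte sum was at least 2 times the muscle sum, muscle-gene-led where the muscle sum was at least 2 times the pericyte sum, and mixed between. Ndufa4l2 was in the sum as first planned, and then 67.8% of pericyte-gene-led cells in SspA+HDM and 65.6% in mock were keratinocyte-like, so it was taken out after that was seen. Pericyte-gene-led cells were then 1515 (3.28%) in SspA+HDM and 222 (1.39%) in mock, a share 2.36-fold higher (2.05 to 2.73). Their pericyte sum was almost all Rgs5, with 11842 Rgs5 and 295 Higd1b transcripts in SspA+HDM and 1549 and 30 in mock. This share is therefore not separate from the higher Rgs5 level of the SspA+HDM section, and cells were not thinned for it. Muscle-gene-led cells were 836 (1.81%) and 646 (4.06%), a share 2.24-fold lower in SspA+HDM (2.02 to 2.48). Mixed cells were 567 (1.23%) and 129 (0.810%). Per mm, the pericyte-gene-led cells were 102 in SspA+HDM and 16.1 in mock, and the muscle-gene-led cells 56.0 and 46.8.

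The make-up of the pericyte-gene-led cells differed between the sections. Blood-endothelium-like cells were 70.6% of them in SspA+HDM and 39.2% in mock, and skeletal-muscle-like cells 17.1% and 51.4%. Their outlines were larger in mock, with a median of 120 µm2 in SspA+HDM and 248 µm2 in mock, where all cells had 89.5 and 134 µm2. Muscle-gene-led cells were more alike, being smooth-muscle-like in 56.3% and 59.9% of cases.

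Among genes outside the sums, Itga8 was 480 CPM in pericyte-gene-led cells and 7188 CPM in muscle-gene-led cells of SspA+HDM, and 133 and 9361 CPM in those of mock. Of 186 other panel genes, 21.5% were higher by 2-fold or more in pericyte-gene-led cells, and 29.6% were lower by as much. The highest 8 held the skeletal muscle genes Myoz2, Myf6, Sypl2, Pgam2, Aqp4 and Myoz1, with Myoz2 9.90-fold higher in SspA+HDM and 18.8-fold in mock. They also held Gpihbp1, which carries lipoprotein lipase on capillary endothelium, 7.72-fold and 7.34-fold higher, and Aqp7, a glycerol channel of fat and capillary cells. The lowest 8, ranked like the highest on transcripts summed over both sections, were Pln, 36.3-fold lower in SspA+HDM and 17.7-fold lower in mock, Myl9, Kcna1, Gm94 and the epithelial genes Ly6g6c, Prom2, Krt13 and Anxa8. These genes were not equally far apart in the sections: Ly6g6c was 3.06-fold lower in SspA+HDM and 53.7-fold lower in mock, Prom2 2.67-fold and 88.5-fold lower with 1 transcript in the mock pericyte-gene-led cells, and Gm94 had a ratio of 0.753 in SspA+HDM (0.445 to 1.31) and 0.0205 in mock.

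Pericyte-gene-led cells held endothelial transcripts more often than muscle-gene-led cells did. At least 3 endothelial transcripts were in 73.5% of pericyte-gene-led and 38.6% of muscle-gene-led outlines in SspA+HDM, and in 57.7% and 21.98% in mock, where 12.6% of all SspA+HDM cells and 10.9% of all mock cells held them. With Ndufa4l2 in the sum, as planned, the order was the reverse, at 22.99% and 37.2% in SspA+HDM and 18.8% and 21.1% in mock. The median distance from a cell's centre to the nearest other cell with at least 3 was 10.4 µm for pericyte-gene-led and 13.1 µm for muscle-gene-led cells in SspA+HDM, and 17.1 and 18.8 µm in mock, where the quartiles nearly coincided (12.5 and 27.8 µm for pericyte-gene-led, 12.7 and 28.8 µm for muscle-gene-led cells). With Ndufa4l2 in the sum the order of the distances was the reverse, by 12.1 µm in SspA+HDM and 5.59 µm in mock. Muscle-gene-led cells formed groups of at least 3 within 20 µm of each other in 52.9% of cases in SspA+HDM and 51.2% in mock. Pericyte-gene-led cells did so in 45.8% and 7.66%. They numbered 102 per mm of strip in SspA+HDM and 16.1 in mock, and the part of that density in these shares was not tested. With Ndufa4l2 in the sum the order of the shares in groups was the reverse as well. They were then 80.3% of pericyte-gene-led and 55.0% of muscle-gene-led cells in SspA+HDM, and 64.7% and 52.6% in mock.

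Muscle-gene-led cells could be divided by that distance, as cells near endothelium (with at least 3 endothelial transcripts or within 15 µm of such a cell) and far from it (more than 30 µm away). Rgs5 and Myh11 were among the genes that chose these cells, Itga8 and Pln were not. There were 608 near and 44 far cells in SspA+HDM and 316 near and 124 far in mock. Rgs5 was 7523 CPM in near and 1323 CPM in far cells of SspA+HDM (ratio 5.69, 2.42 to 17.6), and 5769 and 609 CPM in those of mock (9.47, 4.89 to 20.99). Pln followed in mock, at 3245 CPM in near and 339 CPM in far cells (9.59, 3.99 to 30.1), from 117 and 5 transcripts. In SspA+HDM it had 96 transcripts in near and 0 in far cells. Itga8 and Myh11 did not follow the distance the same way in the sections: Itga8 had ratios of 0.671 (0.484 to 0.954) in SspA+HDM and 1.25 (1.01 to 1.57) in mock, and Myh11 0.778 (0.683 to 0.891) and 1.10 (1.01 to 1.20). Near cells lay deeper, at a median of 193 µm against 154 µm for far cells in SspA+HDM and 98.3 against 54.1 µm in mock.

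In depth, Rgs5 lay below the muscle genes in both sections, by less in SspA+HDM than in mock. Depth was measured from the local surface of the strip, in µm and as a percentage of the local thickness. Rgs5 had a median depth of 218 µm (57.8% of the thickness) in SspA+HDM and 135 µm (62.1%) in mock. Cnn1 had 168 µm (45.2%) in SspA+HDM and 75.1 µm (35.8%) in mock, and Myh11 had 190 µm (51.8%) and 84.4 µm (39.0%). All panel transcripts had 119 µm (31.2%) in SspA+HDM and 93.8 µm (43.0%) in mock. All 4 muscle genes were therefore deeper than the panel in SspA+HDM and shallower than it in mock, and this was so in each strip.

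Itga8 stood at 199 µm (52.0%) in SspA+HDM and 82.3 µm (38.3%) in mock, and Tagln at 210 µm (55.7%) and 87.2 µm (39.8%). Higd1b stood apart from Rgs5, at 143 µm (35.8%) in SspA+HDM and 93.9 µm (42.6%) in mock. Ndufa4l2 was close to the surface, at 42.3 µm (11.9%) and 20.3 µm (9.48%). Rgs5 was deeper than the panel in both sections in µm and as a share of the thickness. Higd1b was deeper in SspA+HDM in µm and level with the panel in mock, on 105 transcripts, with medians of 98.4 against 92.9 µm in mock strip 1 and 92.3 against 94.5 µm in strip 2.

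The local thickness was also cut into 10 equal layers, with layer 1 at the surface. Rgs5 had a shallow and a deep peak in both sections. In SspA+HDM they stood at 4277 CPM in layer 3 and 7679 CPM in layer 7. In mock they stood at 1530 CPM in layer 3 and 4953 CPM in layer 6, with 1093 CPM in layer 2 and 979 CPM in layer 4. Cnn1 peaked at 587 CPM in layer 5 of SspA+HDM. In mock it was concentrated in layers 2 to 5, with 1264 CPM in layer 2, 1678 CPM in layer 4 and 324 CPM in layer 6. Myh11 peaked at 3092 CPM in layer 5 of SspA+HDM and at 5834 CPM in layer 3 of mock, and Itga8 at 965 CPM in layer 7 and 1143 CPM in layer 4. In layers 2 to 5, all 4 muscle genes had lower CPM in SspA+HDM than in mock. In layers 8 and 9 all 4 had higher CPM. CPM here is relative to the panel transcripts of a layer. Layer 2 held 1236372 of these in SspA+HDM and 181210 in mock. As transcript counts, all 4 genes were lower in SspA+HDM in layer 2 but higher in layers 3 and 5. Layer 5 held 1977 and 1114 transcripts of Myh11 and 375 and 320 of Cnn1. In layer 4, Myh11 and Tagln were higher by count and Cnn1 and Itga8 lower.

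**Figure D5:**
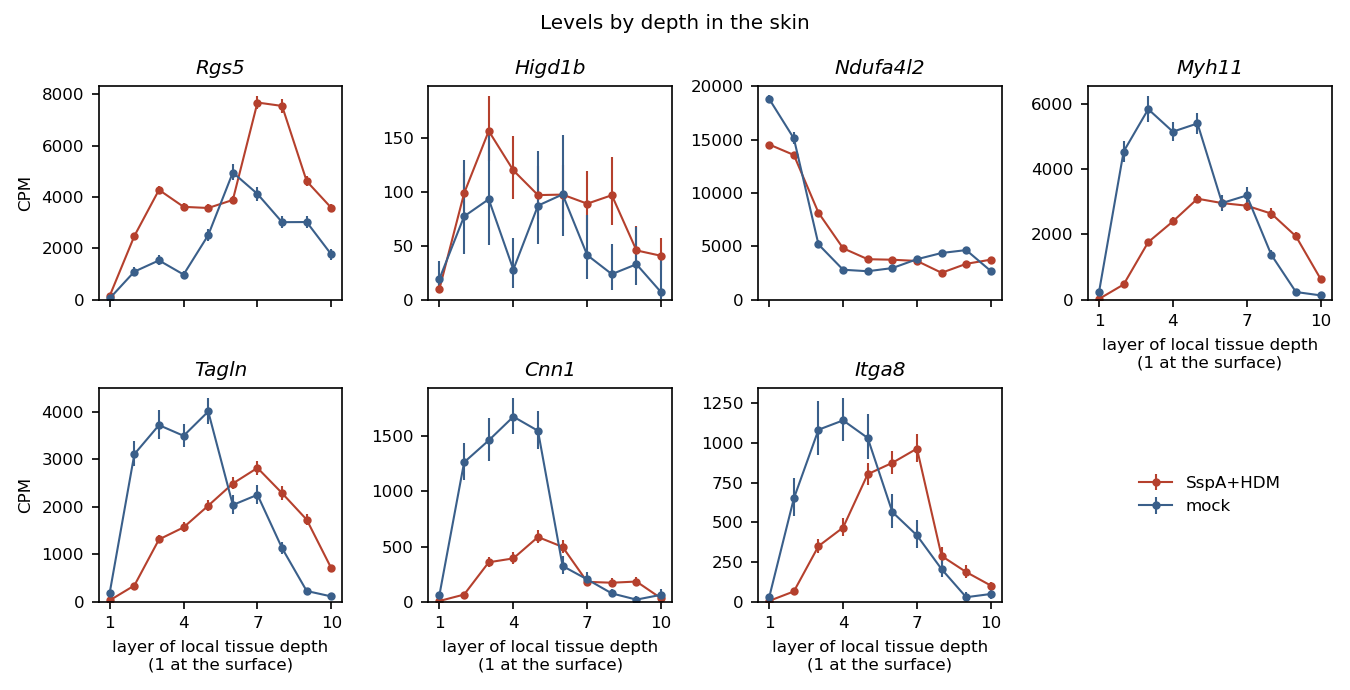
CPM of each gene in 10 equal layers of the local tissue depth, with layer 1 at the surface and exact 95% intervals as bars, for SspA+HDM (red) and mock (blue). The muscle genes peak in layers 5 to 7 in SspA+HDM and in layers 3 to 5 in mock, Rgs5 in layer 7 and layer 6, and Ndufa4l2 in layer 1 of both.

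Within cells, Rgs5, Ndufa4l2, Myh11, Tagln and Cnn1 had a smaller share of transcripts over the nucleus than the median panel gene in both sections. Of all panel transcripts, 31.6% in SspA+HDM and 25.8% in mock lay there. The share was 28.7% for Rgs5, 26.0% for Myh11, 26.4% for Tagln and 24.9% for Cnn1 in SspA+HDM, where the panel median was 44.0%. In mock it was 27.2% for Rgs5, 19.5% for Myh11, 19.8% for Tagln and 16.8% for Cnn1, where the panel median was 36.9%. In mock, Rgs5 and Ndufa4l2 (31.6%) were above the share of all transcripts. Itga8 was above that share in both sections, at 43.6% in SspA+HDM, where its interval (41.6 to 45.6) spans the panel median, and 30.3% in mock. Higd1b was above both the median and the share of all transcripts, at 56.0% in SspA+HDM and 68.6% in mock. It also differed in decoding: 72.1% of its transcripts in SspA+HDM and 77.3% in mock scored below 20, where the other 6 genes had between 20.9% and 28.8%.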

How the data were processed

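For each sample, the deposited table lists decoded transcripts with gene, position, cell, nuclear overlap and a quality score, per the file headers, and a further table gives cell outlines. The software for decoding and segmentation, its settings and the genome build are not given in the labels or file headers, and each transcript was kept in the cell to which the authors deposited it. The scores as deposited ran from 5.28 to 40.0, and transcripts under 20 were left out. Transcripts in cells were counted per gene and divided by the panel total (CPM). Intervals are exact Poisson, Clopper-Pearson or conditional binomial at 95%. Joint clustering took cells of 20 or more transcripts (log1p of scaled counts, 30 principal components, 15 neighbours, Leiden at resolution 1, seed 1). No doublet caller was run, and the sections shared 0 cell identifiers. Strips are pieces of cells linked within 100 µm, and are parts of a section, not replicates. Strip length followed medians in 200-µm bins, and depth was taken between percentiles 2 and 98 of cell positions in 100-µm bins. Named beside the 7 genes are the 3 panel genes most correlated with each, the 8 highest and 8 lowest between pericyte-gene-led and muscle-gene-led cells, and measured smooth muscle list genes; Des and the leading genes of clusters were named after their values were seen. The genes and lists were chosen with earlier results of these data known. Counting and interval code was tested on simulated data. Python 3.11.15, numpy 2.4.6, pandas 2.3.3, scipy 1.17.1, scikit-learn 1.9.0, python-igraph 0.11.9, leidenalg 0.10.2 and matplotlib 3.10.9 were used.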

Additional observations from a re-analysis of the deposited data

How the results depend on the processing

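No paired analysis was possible because each treatment had 1 sample. Of the 7 genes, 4 were lower in SspA+HDM relative to the panel and 1 at least 2-fold lower. Per mm of strip both counts were 0, and the log2 ratio of Cnn1 was 0.058. The count of genes at least 2-fold lower was 3 with skeletal-muscle-like and adipocyte-like cells left out of the panel total. It was 2 without skeletal-muscle-like cells. The log2 ratio of Ndufa4l2 was −0.29 over the nucleus and −0.27 with skeletal-muscle-like and adipocyte-like cells left out of the panel total. Of the 7 genes, 4 were in a smaller share of SspA+HDM cells, and 2 in unthinned cells without a quality filter or over the nucleus. Of the pairs, 10 were at least 2-fold above the product of shares, and 4 over the nucleus, where 10 pairs in place of 20 met the minimum. The Rgs5 and Cnn1 pair in mock was below the product without thinning (0.987) and over the nucleus without thinning (0.720), and the Rgs5 and Ndufa4l2 pair in mock was above it without thinning, with (1.128) and without (1.127) a quality filter. In cells split by Rgs5 and Cnn1, the log2 ratio of Higd1b in mock was −0.19 over the nucleus. With Ndufa4l2 in the pericyte sum, as planned, the log2 share ratio of pericyte-gene-led cells was 0.60 (0.53 to 0.65 with a strip left out), and was 0.45 with a minimum of 3 transcripts, 0.86 with 10, 0.15 over the nucleus, 0.48 without Rgs5 and 1.24 without Ndufa4l2. That of muscle-gene-led cells was −1.15 (−1.28 to −1.05 with a strip left out), and was −0.85 with a minimum of 3, −1.39 with 10, −0.90 over the nucleus, −1.36 thinned to 50 and −0.75 without Rgs5. The median distance to an endothelial cell, pericyte-gene-led minus muscle-gene-led, was 12.1 µm in SspA+HDM and 5.59 µm in mock. In SspA+HDM it was 8.81 µm with a minimum of 10, 3.51 µm over the nucleus and 18.7 µm with at least 5 endothelial transcripts, which gave 14.2 µm in mock. Without Ndufa4l2 it was −2.63 µm in SspA+HDM and −1.74 µm in mock. For the sum without Ndufa4l2, which the Results describe most, other minimums, the nucleus and thinning are not given here. Its pericyte-gene-led cells were 3.088% and 3.455% of cells in the SspA+HDM strips and 1.360% and 1.427% in the mock strips. By share of the local depth, 1 gene in place of 2 was deeper than the panel in both sections. The settings without Ndufa4l2, without keratinocyte-like or skeletal-muscle-like cells, without the cluster led by Wif1, within 5 µm and without thinning together with another change were chosen after seeing the data. The cause of these shifts was not tested. With 105 mock transcripts, Higd1b allows the least precision, and its log2 ratio was 0.46 without mock strip 1 and 1.02 without strip 2. The same ratio was 0.70 in the main setting, 0.35 with no quality filter and 0.12 over the nucleus.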
